A study of Mus musculus with 42 samples.

Results

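The ventromedial hypothalamus (VMH) of fasted mice was compared with 3 neighbours in fasted mice: the arcuate nucleus (ARC), the dorsomedial (DMH) and the paraventricular (PVN). The 6 libraries labelled VMH-Fast, of 42 libraries in all, were set against 5 ARC-Fast, 4 DMH-Fast and 5 PVN-Fast libraries. A gene was counted only where it was higher, or lower, in the VMH than in each of the other nuclei. All mice were adult wild-type males of a strain labelled C57/BL6, given in the study's methods as a C57BL/6J background. The fasted mice had gone 24 hours without food. A further 22 libraries came from the same nuclei of mice fed ad libitum (6 VMH, 5 ARC, 5 DMH and 6 PVN) and served as a second set. Tissue was cut from frozen brain sections by laser capture, so each library holds every cell type inside the cut outline. By the methods, all 4 nuclei were dissected from the serial sections of a brain. The labels do not say which libraries share a mouse, so libraries were treated as independent.

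The VMH is a cluster of mostly glutamatergic neurons at the base of the hypothalamus. It takes part in the control of energy expenditure, blood glucose and social and defensive behaviour. Its neurons form under the transcription factor steroidogenic factor 1 (Nr5a1), and many of them make the peptide PACAP (Adcyap1) and brain-derived neurotrophic factor (Bdnf). The nuclei around it hold many GABAergic and peptide neurons, such as the Agrp and Pomc neurons of the ARC and the oxytocin neurons of the PVN.

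Values are RPKM, reads scaled to the length of the gene and the total of the library. A difference is in units of log2(RPKM + 1), a scale that understates the change of genes at low levels, and stands with its standard error (SE). A gene was called when limma's adjusted p was under 0.1. Estimated depth ran from 1.33 to 6.23 M reads in VMH-Fast and from 2.95 to 13.2 M reads in the other fasted libraries. It was inferred from the values and lies below the average of sequenced reads per sample in the study's methods, which cover more libraries. The 2 shallowest VMH-Fast libraries, numbers 1 and 2, were the only ones of their group in the first of 3 batches inferred from the values, and DMH-Fast had 0 libraries in that batch. VMH libraries were 4 of 10 in the first batch and 4 of 16 in each other batch, and batch means had been removed from the deposited values.

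The first principal component of the 20 fasted libraries held 36.9% of the variance and set the VMH apart from the other nuclei. The VMH-Fast libraries scored from 20.8 to 23.0 on it and the other 14 libraries from -19.5 to -1.60. The second component held 26.9% and separated the ARC from the PVN. The fourth, with 3.96%, separated VMH-Fast-1 at 13.7 from VMH-Fast-2 at -16.4, and all other libraries lay between those values.

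**Figure D1:**
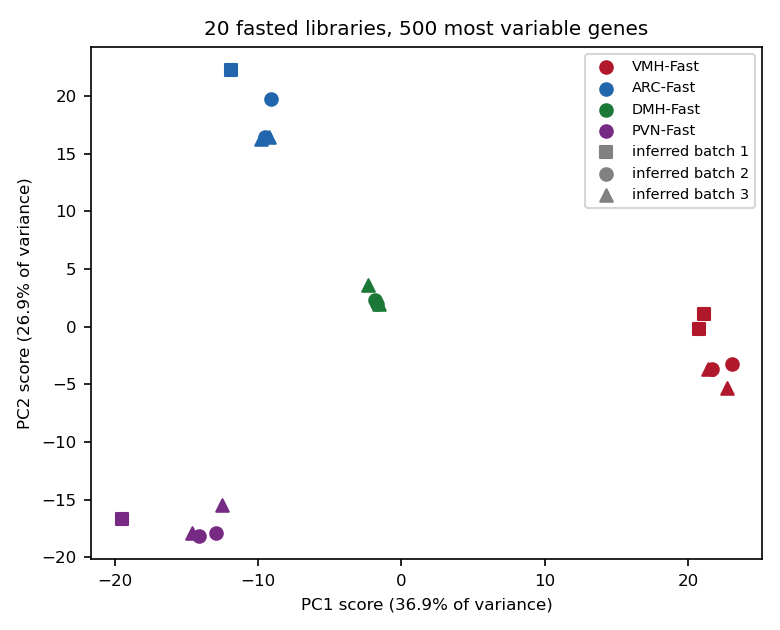
Scores of the 20 fasted libraries on the first (x axis) and second (y axis) principal components of the 500 most variable genes, coloured by nucleus, with the marker shape giving the inferred batch. The 6 VMH libraries lie at 20.8 or more on the first component, and all 14 others lie below 0.

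Of 5 VMH markers, Nr5a1, Fezf1, Adcyap1 and Gpr149 were higher in VMH-Fast than in all 3 other groups, and Nkx2-2 (9.15 ± 2.30 RPKM, SD, n = 6) passed only against the ARC. Markers of the neighbours were low in the VMH. Agrp was 3.12 ± 1.52 RPKM in VMH-Fast and 409 ± 108 in ARC-Fast (n = 5), Hcrt was 2.91 ± 1.33 against 153 ± 51.1 in DMH-Fast (n = 4), and Avp was 5.32 ± 1.79 against 1784 ± 395 in PVN-Fast (n = 5). Pmch, made like Hcrt by lateral hypothalamic neurons beside the DMH, was 18.7 ± 5.70 RPKM in the VMH. This was under the 355 ± 125 of the DMH but above the 2.16 ± 1.18 of the ARC and the 2.01 ± 1.13 of the PVN. Exons of another gene overlap 58.1% of Pmch.

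Against the ARC alone, 1434 of 33579 genes were higher in the VMH (4.27%) and 1558 were lower (4.64%). Against the DMH, 647 were higher (1.93%) and 677 lower (2.02%). Against the PVN, 1511 were higher (4.5%) and 1593 lower (4.74%). In all 3 comparisons at once, 426 genes were higher in the VMH (1.27%) and 263 were lower (0.783%). The counts of each gene list below are to be read beside these shares. The lists were chosen with earlier results of these data known, so their counts are no test of a list. Of the genes tested, 4751 had no reads in any library. Keeping only the 23991 genes above their no-read value in at least 4 libraries, 466 were higher (1.94%) and 307 lower (1.28%). These 3 comparisons share the VMH-Fast libraries. All 6 VMH-Fast libraries lay above all 14 other fasted libraries in 259 of the genes tested (0.771%), of which 229 were among the 426. All 6 lay below in 177 genes (0.527%), of which 141 were among the 263.

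The smallest of the 3 differences of a gene, its margin, had a median of 0.76 among the higher genes and -0.65 among the lower ones. It reached 1 or more in 124 higher and 59 lower genes, and 2 or more in 15 and 8. Just inside the threshold lay Idh1 (largest adjusted p 0.0998) and Bag3 (0.0992), and just outside lay Cd96 and Fbxl21 (both 0.101).

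The largest margins among the higher genes were those of the transcription factors Fezf1 and Nr5a1. Of 6 factors listed for the VMH, 4 were higher than in all 3 other nuclei (Fezf1, Nr5a1, Nr0b1 and Sox14) and 0 were lower. Nkx2-2 and Vgll2 were the other two. Fezf1, a zinc finger repressor (chr6:23245044-23248362, GRCm38, minus strand), was 66.6 RPKM in the lowest VMH-Fast library, 107 at the median and 116 in the highest. It was 0.352, 0.669, 0.756, 0.561 and 0.854 RPKM in ARC-Fast, 3.22, 4.60, 3.56 and 1.41 in DMH-Fast, and 2.75, 5.88, 5.70, 6.38 and 5.13 in PVN-Fast. Every VMH library thus stood far above every other library, and the ARC was the lowest group. The log2 difference was 5.86 ± 0.29 (SE) from the ARC, 4.55 ± 0.31 from the DMH and 3.97 ± 0.29 from the PVN, with a largest adjusted p of 1.73e-12 by limma. The exact permutation p was 0.00216 against the ARC and the PVN and 0.00476 against the DMH, the smallest these group sizes allow.

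Nr5a1, which encodes steroidogenic factor 1 (chr2:38692656-38714542, minus strand), ran from 15.4 over a median of 25 to 28.9 RPKM in VMH-Fast. It was 0.233, 0.636, 0.390, 0.319 and 0.352 RPKM in ARC-Fast, 1.09, 0.448, 2.15 and 0.605 in DMH-Fast, and 0.217, 0.479, 0.325, 0.366 and 0.495 in PVN-Fast. The groups did not overlap, and DMH-Fast-3 was the highest library outside the VMH. The differences were 4.10 ± 0.22, 3.58 ± 0.24 and 4.10 ± 0.22 from the ARC, DMH and PVN (largest adjusted p 9.36e-13). Nr5a1os, a gene that lies partly over Nr5a1 on the opposite strand, was also higher, from 4.37 over 7.51 to 15.0 RPKM in VMH-Fast. Their exons do not overlap in the annotation. In all ARC-Fast and PVN-Fast libraries it sat at its no-read value (at most 1.22 RPKM), so no fold is given for it.

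Nr0b1, a repressor of steroidogenic factor 1, ran from 3.85 over 5.56 to 11.2 RPKM in VMH-Fast. It was 1.24, 2.37, 0.654, 0.655 and 3.26 RPKM in ARC-Fast, between 0.552 and 1.51 in DMH-Fast and between 0.552 and 1.33 in PVN-Fast. The smallest difference, from the ARC, was 1.5 ± 0.26 (adjusted p 9.72e-05), and the groups did not overlap. Sox14 ran from 2.21 over 6.87 to 8.47 RPKM in the VMH and overlapped the ARC, whose highest library had 5.96, with a difference of 0.84 ± 0.24 (adjusted p 0.0228).

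**Figure D2:**
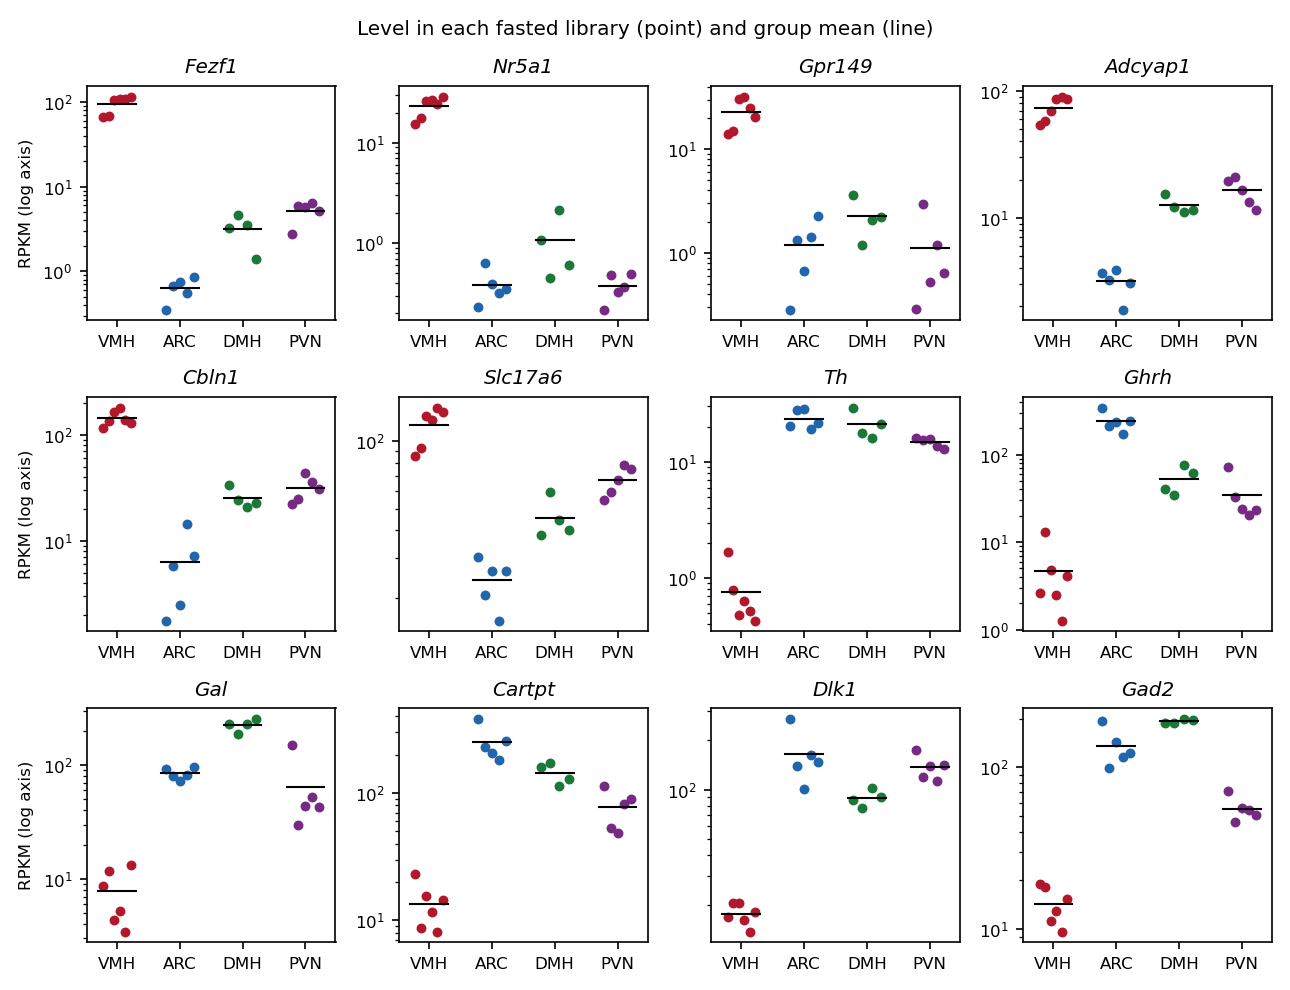
RPKM (log axis) of 12 genes in each of the 20 fasted libraries, 1 point a library, with the group mean as a line; the x axis gives the nucleus. The first 6 panels hold genes higher in the VMH (for Fezf1, 66.6 to 116 RPKM in the VMH and at most 6.38 elsewhere) and the last 6 genes lower there (for Th, at most 1.69 RPKM in the VMH and at least 12.8 elsewhere).

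Secreted peptides and proteins moved both ways. Of 12 listed for the VMH, 3 were higher than in all 3 nuclei (Adcyap1, Cbln1 and Nptx2) and 2 lower (Cbln4 and Dlk1). Adcyap1, the PACAP precursor (chr17:93199017-93206537, plus strand), ran from 53.5 over 77.9 to 90.3 RPKM in VMH-Fast. It was 3.67, 3.22, 3.91, 1.88 and 3.05 RPKM in ARC-Fast, 15.3, 12.2, 11.2 and 11.4 in DMH-Fast, and 19.6, 21.1, 16.7, 13.3 and 11.5 in PVN-Fast. The order was VMH, then PVN and DMH, then ARC, and the DMH lay inside the range of the PVN except for DMH-Fast-3 and DMH-Fast-4. The differences were 4.17 ± 0.28, 2.45 ± 0.29 and 2.11 ± 0.28 from the ARC, DMH and PVN (largest adjusted p 6.99e-07).

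Cbln1, a secreted organiser of synapses, ran from 115 over 136 to 180 RPKM in VMH-Fast. It was 1.77, 5.76, 2.50, 14.3 and 7.21 RPKM in ARC-Fast, 33.8, 24.3, 20.8 and 22.7 in DMH-Fast, and 22.3, 24.6, 43.2, 35.8 and 30.6 in PVN-Fast. Its smallest difference was 2.18 ± 0.28, from the PVN (adjusted p 5.15e-07). Its paralog Cbln4 went the other way, with 6.77 ± 2.79 RPKM in the VMH and group means of 17.9 to 22.7 elsewhere (smallest difference -1.33 ± 0.26, adjusted p 0.00136). Nptx2, a neuronal pentraxin, was 20.5 ± 7.84 RPKM in VMH-Fast and 2.87 to 5.30 on average elsewhere. Bdnf, named whatever its value, was 4.46 ± 1.70 RPKM in VMH-Fast, 0.693 ± 0.449 in ARC-Fast, 1.99 ± 0.649 in DMH-Fast and 3.09 ± 1.37 in PVN-Fast, and it passed against the ARC and DMH (adjusted p 9.96e-06 and 0.0963) but not the PVN (0.433). Exons of another gene overlap 14.4% of Bdnf.

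Among 17 receptors listed for the VMH, 5 were higher than in all 3 nuclei (Gpr149, Cckbr, Cnr1, Oxtr and Crhr2) and Cckar was lower. Gpr149, an orphan receptor (chr3:62529077-62605140, minus strand), ran from 14.1 over 22.8 to 32.1 RPKM in VMH-Fast. It was 0.284, 1.34, 0.665, 1.44 and 2.25 RPKM in ARC-Fast, 3.63, 1.20, 2.06 and 2.24 in DMH-Fast, and 0.286, 2.98, 0.523, 1.20 and 0.643 in PVN-Fast. The groups did not overlap, and the smallest difference was 2.85 ± 0.27, from the DMH (adjusted p 2.18e-09).

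The 2 cholecystokinin receptors moved in opposite directions. Cckbr, the type B receptor, was 12.5 ± 3.45 RPKM in VMH-Fast against 1.37 ± 0.595, 2.70 ± 0.910 and 1.33 ± 0.927 in the ARC, DMH and PVN (smallest difference 1.86 ± 0.30, adjusted p 6.33e-05). Cckar, the type A receptor, was 1.09 ± 0.552 RPKM against 4.65 ± 2.93, 6.21 ± 2.08 and 22 ± 4.73 (smallest difference -1.34 ± 0.32, adjusted p 0.00485). Cnr1, the cannabinoid receptor of neurons, was 51.4 ± 11.7 RPKM in the VMH and 5.27 to 15.1 on average elsewhere (smallest difference 1.67 ± 0.16, adjusted p 1.92e-09). The oxytocin receptor Oxtr ran from 5.09 over 6.96 to 17.2 RPKM in VMH-Fast and reached at most 4.2 elsewhere (smallest difference 1.43 ± 0.30, adjusted p 0.00117). Crhr2, a receptor for urocortins, was low in all groups, at 1.77 ± 0.759 RPKM in the VMH (smallest difference 0.67 ± 0.17, adjusted p 0.00738).

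Neither Lepr nor Esr1 was called. Lepr, the leptin receptor, was 2.44 ± 0.802 RPKM in VMH-Fast, lower than the 9.09 ± 3.10 of ARC-Fast (difference -1.54 ± 0.17, adjusted p 1.6e-08) and higher than the 0.635 ± 0.145 of PVN-Fast (1.04 ± 0.17, adjusted p 2.76e-05), and its difference from the DMH was 0.15 ± 0.18. Esr1, an oestrogen receptor, was 1.13 ± 0.431 RPKM in the VMH and 6.29 ± 0.849 in the ARC, and its differences from the DMH and PVN were -0.31 ± 0.15 and -0.08 ± 0.14. Of 18 steroid and thyroid hormone genes, 0 were higher and 1 was lower in the VMH, Rorb, at 6.62 ± 2.01 RPKM against 10.7 to 29.4 on average elsewhere.

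Apart from Camkv and Nrgn, of the calmodulin signalling list below, the remaining leading genes were outside the lists. By rule, the 16 higher genes with the largest margins were Fezf1, Nr5a1, Gpr149, Lbhd2, Cnih3, Hipk4, Gda, Zfp831, Chrm5, Cbln1, Gamt, Adcyap1, Camkv, Rasal1, Nrgn and Nr5a1os, with margins from 3.97 for Fezf1 to 2.02 for Nrgn before the last. In all 16 the lowest VMH-Fast library lay above the highest library of the other nuclei, against 0.771% of all genes tested. The same libraries chose these genes, so this separation is largely fixed by the choice. Gda, guanine deaminase, ran from 46.5 over 87.7 to 92.4 RPKM in VMH-Fast and from 8.38 to 18.9 in the other 14 libraries (smallest difference 2.28 ± 0.18, adjusted p 1.39e-11). Chrm5, a muscarinic acetylcholine receptor, ran from 8.58 over 19.7 to 22.7 RPKM and from 0.662 to 5.11 elsewhere (2.23 ± 0.37, adjusted p 0.000102). Cnih3, an auxiliary subunit of AMPA receptors, came closest to overlap, with 7.29 RPKM in the lowest VMH library and 6.90 in DMH-Fast-2 (2.42 ± 0.40, adjusted p 0.00012). Gamt, the last enzyme of creatine synthesis, was 20.8 ± 3.44 RPKM in the VMH and 3.02 to 4.27 on average elsewhere (2.17 ± 0.35, adjusted p 7.6e-05).

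The neurotransmitter genes separated the VMH from its neighbours in both directions. Of 4 glutamatergic genes, only the vesicular glutamate transporter Slc17a6 was higher than in all 3 nuclei. It ran from 85.9 over 127 to 141 RPKM in VMH-Fast and was 30.5, 20.7, 26.2, 15.8 and 26.4 in ARC-Fast, 38.1, 59.3, 44.4 and 40.3 in DMH-Fast, and 54.8, 59.7, 67.1, 78.5 and 75.1 in PVN-Fast. The groups did not overlap, and VMH-Fast-1 stood 1.09 times above the highest PVN library. The differences were 2.27 ± 0.17, 1.35 ± 0.18 and 0.80 ± 0.17 from the ARC, DMH and PVN (largest adjusted p 0.00128).

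Of 11 GABAergic genes, 0 were higher and 3 were lower than in all 3 nuclei: Gad2, Slc32a1 and Dlx1. Against single nuclei, 7 were lower than in the ARC, 10 than in the DMH and 4 than in the PVN. Of all genes tested, 0.783% were lower than in all 3 nuclei, and 4.64%, 2.02% and 4.74% than in each of these. Gad2, a GABA-synthesising enzyme (chr2:22622205-22693874, plus strand), ran from 9.63 over 14.1 to 19 RPKM in VMH-Fast. It was 194, 99.5, 144, 116 and 123 RPKM in ARC-Fast, 188, 189, 200 and 196 in DMH-Fast, and 71.1, 45.9, 55.8, 54.5 and 50.3 in PVN-Fast. The highest VMH library was 0.414 times the lowest PVN library, and the differences were -3.15 ± 0.22, -3.69 ± 0.24 and -1.90 ± 0.22 (largest adjusted p 6.64e-08). Slc32a1, the vesicular GABA transporter, was 2.24 ± 1.21 RPKM in the VMH and 8.35 ± 6.96 in the PVN, and their ranges overlapped. Exons of another gene overlap 24.9% of Slc32a1, so its value is uncertain. Gad1 was 1.96 ± 1.78 RPKM in the VMH, near the 2.64 ± 0.872 of the PVN and under the 24.9 ± 3.52 of the ARC and the 25 ± 2.14 of the DMH. In bulk tissue, fewer cells of a type and less RNA per cell cannot be told apart.

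By rule, the 10 genes with the most negative margins were Th, Dgkk, Gal, Ghrh, Calcr, Cartpt, Dlk1, Asb4, Rab3b and Fam107b, with margins from -3.19 to -1.93. All 6 VMH-Fast libraries lay below all other fasted libraries in each of them, against 0.527% of all genes tested. Here too the separation is largely fixed by the choice of genes from these libraries. Of 11 ARC markers tested, 3 were lower in the VMH than in all 3 nuclei (Th, Ghrh and Cartpt), and all 11 were lower than in the ARC itself. Of 7 DMH and 8 PVN markers, 0 were lower than in all 3, while 5 were lower than in the DMH and 8 than in the PVN respectively. The DMH list includes Hcrt and Pmch, made by lateral hypothalamic neurons beside the DMH.

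Th, tyrosine hydroxylase (chr7:142892752-142931128, minus strand), ran from 0.429 over 0.578 to 1.69 RPKM in VMH-Fast. It was 20.5, 27.9, 28.5, 19.2 and 21.3 RPKM in ARC-Fast, 29.2, 17.6, 16 and 21.1 in DMH-Fast, and 16.1, 15.5, 15.7, 13.6 and 12.8 in PVN-Fast. The other nuclei were at similar levels and the VMH alone was near 1 RPKM, with VMH-Fast-1 the highest of its group. The differences were -3.82 ± 0.29, -3.64 ± 0.31 and -3.19 ± 0.29 (largest adjusted p 3.37e-10).

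Gal, the galanin precursor (chr19:3409915-3414544, minus strand), ran from 3.44 over 6.99 to 13.2 RPKM in VMH-Fast. It was 91.6, 80.5, 72.8, 81.1 and 97.0 RPKM in ARC-Fast, 230, 186, 231 and 256 in DMH-Fast, and 149, 29.7, 43.8, 52.9 and 43.2 in PVN-Fast. The DMH was highest, PVN-Fast-1 stood above the rest of its group, and the smallest difference was -2.78 ± 0.36 (adjusted p 5.18e-07). Ghrh, growth hormone-releasing hormone, ran from 1.26 over 3.33 to 13.0 RPKM in the VMH, against 173 to 343 in the ARC, 34.8 to 75.0 in the DMH and 20.7 to 71.9 in the PVN (-2.74 ± 0.42, adjusted p 9.81e-06). Cartpt, the CART peptide precursor, ran from 8.14 over 13.0 to 23.0 RPKM, against 48.1 in the lowest other library (-2.43 ± 0.28, adjusted p 5.5e-08).

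Dlk1, a secreted and membrane-bound relative of Notch ligands, ran from 13.8 over 17.5 to 20.6 RPKM in VMH-Fast and from 77.5 to 269 in the other 14 libraries (smallest difference -2.27 ± 0.22, adjusted p 4e-09). Calcr, the calcitonin receptor, ran from 1.20 over 2.78 to 4.25 RPKM and from 16 to 34.9 elsewhere (-2.43 ± 0.25, adjusted p 1.73e-08). Dgkk, a diacylglycerol kinase, was 3.17 ± 2.58 RPKM in the VMH, 86.5 ± 21.4 in the ARC, 31.6 ± 5.75 in the DMH and 29.8 ± 7.38 in the PVN (-3.03 ± 0.30, adjusted p 1.74e-09). Rab3b, a small GTPase of secretory vesicles, was 8.95 ± 1.59 RPKM and 38.6 to 73.7 on average elsewhere (-1.99 ± 0.21, adjusted p 2.66e-08).

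In the lists of neuronal signalling genes, more members were higher than lower. Over all genes tested, 1.27% were higher and 0.783% lower than in all 3 nuclei. Of 14 genes of calmodulin signalling, 8 were higher than in all 3 nuclei (Nrgn, Camkv, Camk2a, Camk2b, Camkk2, Ppp3ca, Ppp3cb and Ppp3r1) and 0 were lower. Nrgn and Camkv are also among the leading genes by margin, and the list was chosen with earlier results known. Its count is therefore only a description. The medians of the list of 14 were 0.79, 0.61 and 0.78 against the ARC, DMH and PVN. The median of all genes tested was 0 in each, but it includes the 4751 genes with no reads in any library. Nrgn, neurogranin, which binds calmodulin, ran from 56.0 over 95.0 to 118 RPKM in VMH-Fast and from 1.79 to 39.1 elsewhere. Ppp3ca, the catalytic subunit of calcineurin, ran from 71.3 over 104 to 118 RPKM and from 29.3 to 50.4 elsewhere (smallest difference 1.19 ± 0.11, adjusted p 8.84e-10). The call of Ppp3cb (largest adjusted p 0.0857) was lost in 8 of 20 fits that left out 1 library, and its VMH range overlapped the others. Ppp3r1 shares 22.2% of its 50-base stretches with other transcripts and is uncertain.

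Of 54 potassium channel genes, 9 were higher than in all 3 nuclei (Kcna1, Kcna2, Kcnab1, Kcnb2, Kcnh5, Kcnh7, Kcnj5, Kcnq3 and Kcns2) and 2 lower (Kcnc2 and Kcnk9). The shares over all genes tested were 1.27% and 0.783%. The calls of Kcna2 and Kcnh5 were each lost in 6 of the 20 fits and that of Kcnj5 in 8, and Kcna2 (largest adjusted p 0.0671) overlapped the DMH, where DMH-Fast-2 had 40.5 RPKM. Kcna1, a delayed rectifier, was 15.7 ± 5.61 RPKM in VMH-Fast and 2.66 to 5.40 on average elsewhere (smallest difference 1.34 ± 0.31, adjusted p 0.00678). Of 38 glutamate and GABA receptor genes, 6 were higher, Gria1, Grm5 and Gabra5 among them, and 2 lower (Grik1 and Gabre). Gabra5 ran from 85.4 over 135 to 159 RPKM in VMH-Fast, 43.1 to 86.9 in the ARC and DMH, and 6.48 to 18.4 in the PVN, so only ARC-Fast-1 reached into the VMH range. Gabre passed narrowly against the PVN (-0.72 ± 0.26, adjusted p 0.0968; exact permutation p 0.108) and its call was lost in 16 of the 20 fits, while that of Grin2a was lost in 9.

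Guidance and adhesion genes split evenly, where 1.27% of all genes tested were higher and 0.783% lower. Of 41 axon guidance genes tested, 4 were higher (Slit3, Plxna1, Epha5 and Unc5a) and 4 lower (Plxnc1, Nrp1, Nrp2 and Unc5d). Of 39 adhesion genes, 4 were higher (Cdh4, Cdh13, Amigo2 and Nlgn1) and 4 lower (Nrxn3, Flrt3, Lrrtm4 and Pcdh17). The calls of Slit3, Pcdh17 and Nlgn1 were lost in 3, 7 and 11 of the 20 fits. Cdh4, a classical cadherin, was 19.8 ± 5.30 RPKM in VMH-Fast and 3.19 to 7.64 on average elsewhere (1.23 ± 0.18, adjusted p 3.76e-06). Nrxn3, a presynaptic adhesion protein, ran from 7.62 over 10.5 to 13.7 RPKM, and 19.6 was the lowest value elsewhere (-1.29 ± 0.15, adjusted p 1.18e-07).

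Of 14 general neuronal markers, 7 were higher than in all 3 nuclei (Rbfox3, Snap25, Nefl, Nefh, Eno2, Thy1 and Syn1) and 0 were lower. Among all genes tested the shares were 1.27% and 0.783%. Snap25, a synaptic fusion protein, ran from 679 over 803 to 923 RPKM in VMH-Fast and from 297 to 496 elsewhere (smallest difference 0.84 ± 0.09, adjusted p 3.89e-09). The summed level of the list ran from 1923 to 2843 RPKM in VMH-Fast, 1018 to 1151 in ARC-Fast, 1450 to 1662 in DMH-Fast and 1447 to 1709 in PVN-Fast. Its part in the channel, receptor and calmodulin results was not tested. Exons of another gene overlap 32.8% of Nefl.

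In the fasted libraries, no glial, vascular or blood list held a gene called against all 3 nuclei, but some moved against single nuclei. Of 13 oligodendrocyte genes, 7 were higher in the VMH than in the ARC, 0 than in the DMH and 7 than in the PVN. The shares over all genes tested were 4.27%, 1.93% and 4.5%. In the fed libraries, 4 of these 13 genes were higher in the VMH than in all 3 nuclei, against 1.51% of all genes tested. The summed level of the oligodendrocyte list was 236 to 335 RPKM in VMH-Fast, 108 to 221 in ARC-Fast, 176 to 267 in DMH-Fast and 127 to 157 in PVN-Fast. Mbp was 74.0 ± 11.4 RPKM in the VMH, 26.8 ± 9.68 in the ARC, 51.3 ± 11.3 in the DMH and 28.6 ± 3.88 in the PVN. Of 13 endothelial and pericyte genes, 9 were lower than in the PVN, with sums of 56.6 to 99.1 RPKM in VMH-Fast and 171 to 199 in PVN-Fast. Of 12 tanycyte and ependymal genes, 4 were lower than in the ARC. Over all genes tested, 4.74% were lower than in the PVN and 4.64% than in the ARC. Of the 12 astrocyte, 11 microglia, 5 blood, 3 oligodendrocyte precursor and 2 choroid plexus genes tested, 0 were called against all 3.

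**Figure D3:**
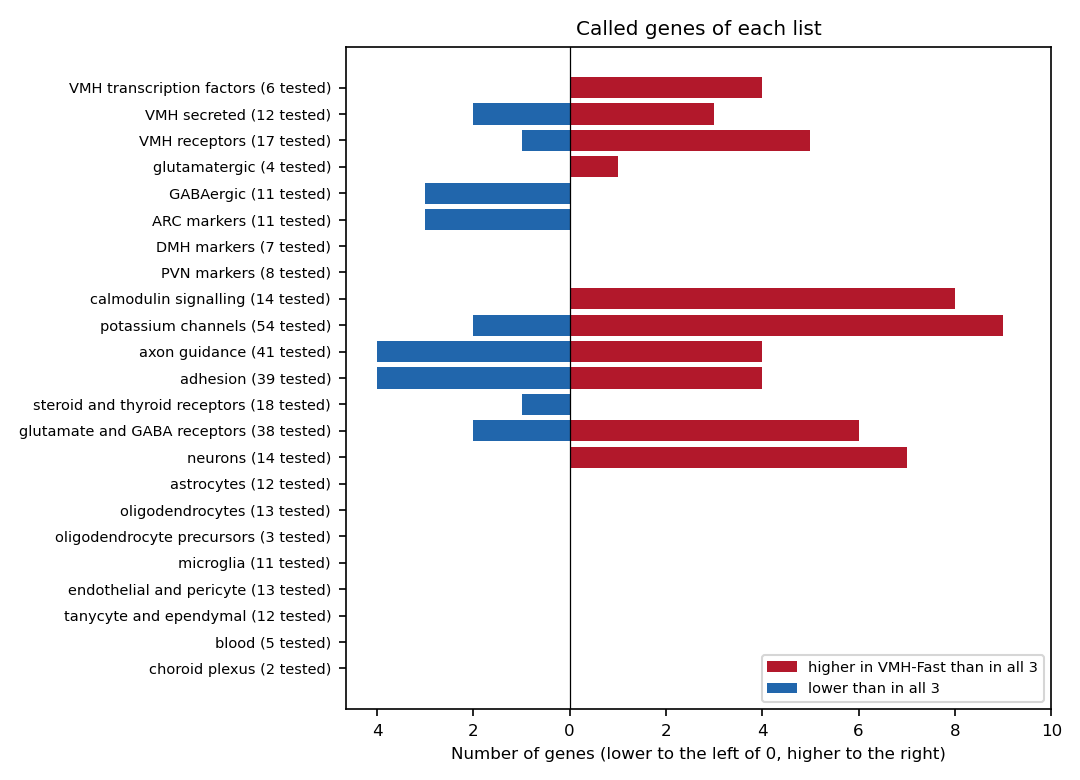
Number of genes of each of 23 lists (rows, with the number tested) called against all 3 nuclei, lower in VMH-Fast to the left of 0 and higher to the right. Calmodulin signalling (8 of 14) and neurons (7 of 14) have bars to the right only, GABAergic genes (3 of 11) and ARC markers (3 of 11) to the left only, and the 8 glial, vascular and other lists below the neurons have none.

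Because steroidogenic factor 1 binds DNA, the 250 bases before each gene's start were searched for its core element CAAGGTCA on both strands, in RefSeq promoters of GRCm38.p6. Of the 423 higher genes with a symbol 291 had a promoter entry, and 3 of them held the element (1.03%). Of 262 lower genes 209 had an entry and 0 held it. The share over 15544 tested genes was 1.33%. A match is only a description of the sequence. The windows of the called genes that held the element are shown with it in capitals. They lie at chr7:27523063-27523122 for Hipk4, a protein kinase, chr1:134646419-134646478 for Syt2, a synaptotagmin, where it reads on the opposite strand, and chr2:58754996-58755055 for Upp2, a uridine phosphorylase, all read along the plus strand.
Hipk4: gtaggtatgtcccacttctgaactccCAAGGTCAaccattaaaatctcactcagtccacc
Syt2: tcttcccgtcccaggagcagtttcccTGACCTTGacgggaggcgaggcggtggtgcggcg
Upp2: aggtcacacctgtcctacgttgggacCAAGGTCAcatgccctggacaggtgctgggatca
Hipk4 ran from 14.7 over 24.8 to 44.6 RPKM in VMH-Fast and from 1.74 to 6.02 elsewhere (smallest difference 2.33 ± 0.33, adjusted p 1.02e-05).

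The fed libraries, whose levels did not enter the fasted differences though they shared the estimate of spread, gave the same directions for most of these genes. Fitted on their own, they called 508 genes higher (1.51%) and 259 lower (0.771%) in VMH-Fed than in all 3 other fed groups. Of the 426 genes higher in the fasted VMH, 295 were among these (69.2% of the fasted and 58.1% of the fed genes). Of the 263 lower genes, 134 were (51.0% and 51.7%). The direction was the same in all 3 fed comparisons for 409 higher (96.0%) and 253 lower genes (96.2%), against 23.8% and 22.2% of all genes tested, and 0 were called in the opposite direction. Among genes with a margin of 1 or more, 81.5% of the higher and 71.2% of the lower ones were called again. Among those from 0.5 to 1 it was 63.4% and 50.7%, and among those under 0.5 it was 66.0% and 32.8%. The batch means had been removed over fed and fasted libraries together, so the 2 sets are not fully separate.

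**Figure D4:**
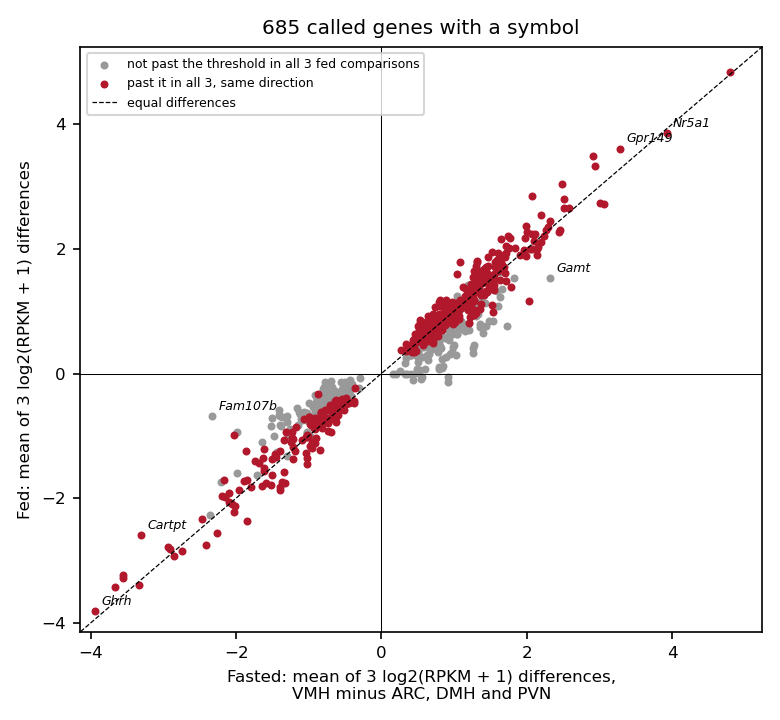
Mean of the 3 log2(RPKM + 1) differences between the VMH and the other nuclei in fasted (x axis) and fed (y axis) libraries for the 685 called genes with a symbol; red points were called against all 3 nuclei in the fed libraries too, and the dashed line marks equal differences. Most points lie near the line, and Fam107b stands off it.

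Whether the VMH's difference from the other nuclei depended on feeding was tested directly. By limma, 0 of 33579 genes passed (0%), with 1727 at an unadjusted p under 0.05 and a smallest adjusted p of 0.394. Of the called genes, 52 higher and 55 lower ones had such an unadjusted p. The called genes were chosen by their fasted differences, which are part of this contrast. Low p-values among them, that of Fam107b included, are favoured by that choice and cannot show dependence on feeding. Leaving out VMH-Fast-3, VMH-Fast-4 or VMH-Fast-5 brought 1 gene each past the threshold, Gm4886, Mup20 and Myzap (adjusted p 0.0943, 0.0126 and 0.0494). Fam107b had the lowest p of the genes called in the fasted VMH, at rank 3 of all genes tested (unadjusted p 3.52e-05, adjusted p 0.394). It was 1.05 ± 0.461 RPKM in VMH-Fast, with 12.8 ± 6.03, 6.69 ± 0.851 and 10.2 ± 3.72 in the fasted ARC, DMH and PVN. In the fed VMH it was 3.62 ± 2.63 RPKM (n = 6), with 4.65 ± 1.69, 6.99 ± 1.18 and 5.25 ± 1.25 in the fed ARC, DMH and PVN, and it was not called there. Gamt (difference from the fed DMH 0.83, adjusted p 0.312), Oxtr, Crhr2, Cckar, Cbln4 and Rorb were among the other genes named here that were not called in the fed set.

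Within the inferred batches, 405 of the 426 higher and 256 of the 263 lower genes kept their direction in all 8 comparisons of a nucleus inside a batch. These are the libraries that chose the genes, so the counts are largely fixed by that choice and are no support for it. In the 20 fits that each left out 1 fasted library, 273 higher and 161 lower genes were called every time. Without both VMH-Fast libraries of the first batch, an alternative chosen after seeing the data, 491 genes were higher and 230 lower, of which 367 and 198 were in the original sets. VMH-Fast-1 and VMH-Fast-2 were both below the other VMH-Fast libraries in 140 of the 426 genes called higher (32.9%), against 13.2% of all genes tested. The part of depth and batch in this was not tested.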

How the data were processed

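The authors deposited RPKM values for 37907 Ensembl genes in 42 libraries. RNA from laser-captured nuclei was amplified (Ovation RNA-Seq System V2) and sequenced single-end. The submitters' processing notes name CASAVA 1.7, TopHat2 2.0.11, Cufflinks 2.2.1, edgeR and limma, with build GRCm38; the study's methods state a count model and outlier removal. The table holds 0 zeros: 21975 genes have a recurring lowest value, median 1.60 RPKM, taken as no reads, from which 3 batches and the depth (mean 4.57 M reads, 1.33 to 13.2 M) were inferred, with 98.1% to 99.1% of low values whole reads above it (tolerance 0.1). RPKM is no count, so limma 3.58.1 in R 4.3.3 took the place of the authors' count test.

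Genes with at least 1 RPKM in at least 4 libraries (33579) were fitted on log2(RPKM + 1) with 8 group means over all 42 libraries and an intensity trend, two-sided, with Benjamini-Hochberg adjustment in each comparison. The fit was run on simulated data as a check of the code. Symbols and positions come from GENCODE M21 (36049 IDs matched). Whether counting used strand is not given in the sources used here. Of the called genes, 43 higher and 26 lower overlap another gene over more than 10% of their exons, and 24 and 24 share over 10% of 50-base stretches with other transcripts. Replicate numbers were not used to pair libraries in the main fit. Of 14 same-numbered fasted pairs, 6 were in the same inferred batch. Over the 14, deviations correlated between -0.125 and 0.0899. With batch and group means removed, these correlations cannot show whether libraries share a mouse. Named genes were the 16 higher and 10 lower genes with the largest margins, every called list member (some are not reported here), and Nr5a1, Fezf1, Adcyap1, Bdnf, Slc17a6, Esr1 and Lepr. The members and lists were chosen with earlier results of these data known. P-values measure the spread between libraries. By the methods the nuclei were cut from the same brains, so libraries of different nuclei are expected to share mice. The main fit did not model this pairing.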

Additional observations from a re-analysis of the deposited data

Results flagged for a closer look

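In groups of 4 to 6 fasted libraries, 27 of 364 groups over 91 named genes held a library that stood apart from the others by Dixon's criterion, in 14 libraries. Chance sets apart a library in about 1 in 20 groups, here 18.2. In VMH-Fast-1, 5 genes stood high: Th at 1.69 RPKM (others 0.429 to 0.795), Dgkk at 8.27 (1.37 to 2.99), Oxtr at 17.2 (5.09 to 8.05), Flrt3 at 8.91 (2.42 to 4.77) and Rorb at 10.7 (5.51 to 6.07). VMH-Fast-2 stood high in Ghrh at 13.0 RPKM and Gabre at 19.1, and VMH-Fast-6 in Nr0b1 at 11.2 and Cckar at 2.13.

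Among the other nuclei, PVN-Fast-1 stood high in Gal at 149 RPKM, Ghrh at 71.9 and Slc32a1 at 20.5. ARC-Fast-1 stood high in Dgkk at 124 RPKM and Asb4 at 112 and low in Plxna1 at 6.77. DMH-Fast-2 stood high in Sox14 at 2.27 RPKM, Kcna2 at 40.5, Kcnh5 at 12.9 and Flrt3 at 34.8. The others were Nr5a1os at 1.505 RPKM in DMH-Fast-4, Cbln4 at 16.4 in PVN-Fast-4 (low), Ppp3r1 at 75.9 in PVN-Fast-2 (low), Cdh4 at 7.10 in ARC-Fast-5, Lrrtm4 at 19.9 in PVN-Fast-5, Grm5 at 22 in DMH-Fast-3, Snap25 at 359 in ARC-Fast-3 and Nefh at 17.5 in ARC-Fast-4.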

How the results depend on the processing

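Counts of called genes stayed within 1.5 times under another pseudocount (0.1), no filter or a stricter filter on low values, fasted libraries alone, a batch covariate, array weights, median centring, no intensity trend and an adjusted p under 0.05. Over these, higher genes ranged from 331 to 581 and lower genes from 201 to 330. Requiring a log2 difference of at least 1 left 124 higher and 59 lower genes, 801, 411 and 910 genes passing against the ARC, DMH and PVN, and 115 called in the fed libraries too. Leaving out 1 library gave 361 to 474 higher and 225 to 263 lower genes, with 2507 to 3034, 1139 to 1617 and 2506 to 3173 passing against the 3 nuclei, and 0 to 1 passing the interaction. The lowest counts of higher and lower genes came without DMH-Fast-4, the deepest library. With a replicate block, 300 genes were higher and 227 lower, of which 285 and 204 were in the original sets. Of 14 same-numbered pairs 4 correlated best with their own number, and 0 of these 4 were in the same inferred batch. Of 88 called named genes, 49 kept their call under all alternatives run and 0 reversed. Median no-read values of 1.60 RPKM limit low genes.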

Other observations

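Other gene groups were noticed after the values were seen, so their counts carry no test of the group, and all differences are those of limma in fasted libraries. Imprinted genes, expressed from 1 parental copy, were often lower in the VMH: of 40 tested, 13 were lower than in all 3 nuclei and 1, Rian, was higher, against 0.783% and 1.27% of all genes tested. The lower ones were Dlk1, Asb4, Calcr, Peg10, Kcnk9, Zdbf2, Nespas, Gnas, Rasgrf1, Ndn, Nap1l5, Impact and Peg3. Peg10, for example, differed by -1.94 ± 0.16, -1.70 ± 0.18 and -1.20 ± 0.16 (SE) from the ARC, DMH and PVN. In the fed libraries 13 of the 40 were lower and 1 higher. The fed genes were not all the same ones, as Kcnk9 was not called there. Secretory granule proteins split by member. Of 7 granins, Vgf, Scg2, Scg3 and Chgb were lower (Vgf by -1.98 ± 0.22, -1.78 ± 0.24 and -2.31 ± 0.22) and Chga was higher (0.71 ± 0.20, 0.70 ± 0.21 and 1.44 ± 0.20). Of 21 genes of protein folding in the endoplasmic reticulum, 5 were lower (Hspa5, Hsp90b1, Hyou1, Xbp1 and Creb3l2) and 0 higher.

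Of 81 cytosolic ribosomal protein genes, 12 were lower than in all 3 nuclei and 0 higher. Against single nuclei, 68 were lower than in the ARC, 12 than in the DMH and 46 than in the PVN. Of all genes tested, 0.783% were lower than in all 3, and 4.64%, 2.02% and 4.74% than in each. The 12 ribosomal protein genes lower than in all 3 share between 16.4% and 64.9% of their 50-base stretches with other transcripts. Their values are thus uncertain. Over all genes tested, 1.27% were higher than in all 3 nuclei. Of 6 genes of 14-3-3 proteins, adaptors that bind phosphorylated proteins, 5 were higher and 0 lower. Of these, Ywhaq, Ywhaz and Ywhah share 33.9%, 23.5% and 11.1% of their stretches with other transcripts and are uncertain. Of 5 muscarinic receptors, Chrm5 and Chrm1 were higher, Chrm1 by 1.07 ± 0.21, 1.18 ± 0.22 and 1.52 ± 0.21.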
